A study of Mus musculus with 2 samples.

Results

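The genes of transforming growth factor beta (TGF-beta) and bone morphogenetic protein (BMP) signalling, other than those of its Nodal branch, were described in mouse embryonic stem (ES) cells grown as 2 cultures. They were taken by gene symbol from the deposited table: the Smad, Acvr, Bmp, Bmpr, Tgfb, Gdf, Inh, Ltbp, Smurf, Id, Fst and Grem families with Ski and Bambi. Smad2, Smad3, Smad7, Acvr1b and Acvr2b were left out. This gave 53 genes of 14261 rows. The cells, labelled TRE-ESC, were held in suspension in low adsorption dishes in N2B27 medium with 2i and LIF, additions that keep mouse ES cells in the naive state. The culture labelled TRE-suspend-36h had no doxycycline (dox), and the culture labelled TRE-suspend-adox-36h had dox, a drug used to switch on tetracycline-controlled transgenes. The labels do not state the transgene, the strain or whether the line is 1 clone. There was 1 library per group, so no test was possible and the spread between cultures is unknown.

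In this family a secreted dimeric ligand brings together type II and type I receptors, which are serine/threonine kinases. The type I receptor phosphorylates a receptor Smad, which joins Smad4 and enters the nucleus. BMP ligands act mainly through Smad1, Smad5 and Smad9, and TGF-beta and activin ligands through Smad2 and Smad3. TGF-beta is secreted in a latent complex with an Ltbp protein, which tethers it to the matrix until it is released. In mouse ES cells BMP signals are known to raise Id genes, which encode inhibitors of basic helix-loop-helix transcription factors.

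The extracellular genes Bmp1, Tgfbi and Ltbp1 were much higher with dox, while Id3, Gdf3 and Ltbp4 were lower. Of the genes with a value of at least 50 in either library, all 3 Smads and 5 of 6 receptors lay within 2-fold, as did 85.3% of all genes. Values are the whole numbers of the deposited table, on a scale taken to be normalized between libraries. Folds and log2 ratios are of the value with dox over that without, with 10 (the pseudocount) added to both, so ratios of low genes come out too small. Genes entered the counts at a value of 50 or more, the floor, in either library, and at least 2-fold was called higher or lower.

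By these rules 20 of the 53 genes (37.7%) reached the floor, against 59.9% of all rows. Of the 20 genes 4 were higher and 3 lower with dox, 20% and 15%. Of all 8547 genes at the floor 9.23% were higher and 5.49% lower, or 14.7% in either direction. The median log2 ratio was 0.38 over the 20 genes and −0.08 over all genes at the floor. All 4 higher genes were under 50 without dox and reached the floor through the library with dox, so they had to differ, as did Id3 in the other direction. Of the 13 genes at 50 or more in both libraries 0 were higher and 2, Gdf3 and Ltbp4, were lower. Their median log2 ratio was 0.00. Over all genes at 50 or more in both libraries 4.92% were higher and 3.24% lower, and the median log2 ratio was −0.08.

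**Figure D1:**
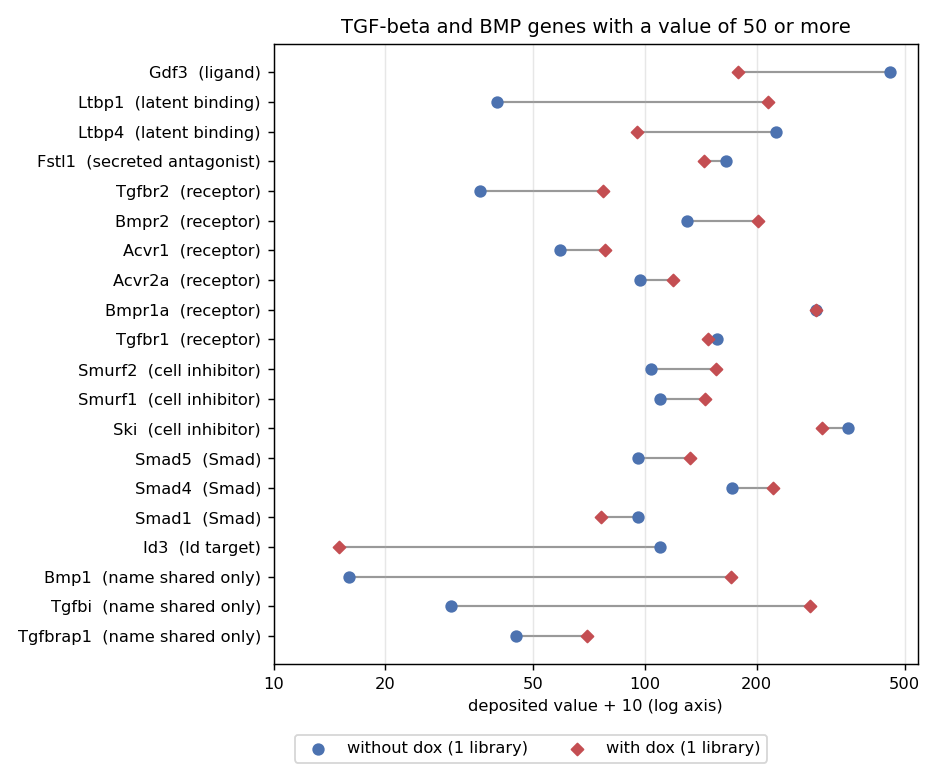
Values of the 20 TGF-beta and BMP genes at 50 or more in either library, plus 10, on a log axis, grouped by role. Circles are the library without dox and diamonds that with dox. Long bars join the values of Bmp1, Tgfbi, Ltbp1 and Id3, and both values of Bmpr1a are 279.

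**Figure D2:**
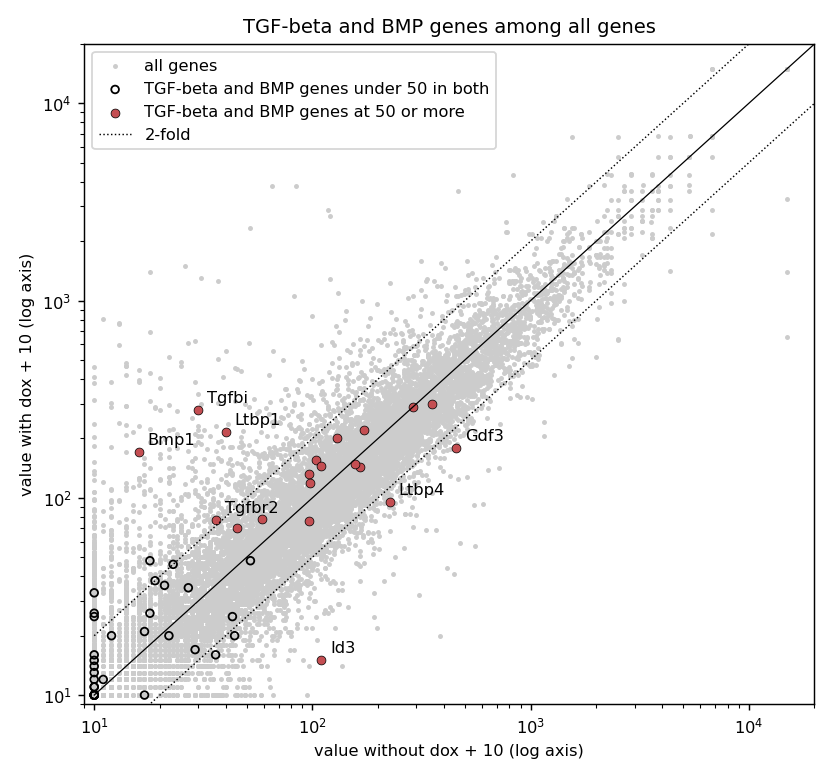
Values plus 10 with dox against those without dox, on log axes, for all 14261 rows (grey) and the 53 genes (filled where at least 50 in either library, open otherwise). Dotted lines mark 2-fold, and Bmp1, Tgfbi, Ltbp1 and Id3 lie farthest from the diagonal among the filled points.

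The sequences shown are promoters of the genes with the largest log2 ratios in each direction that have an entry in the RefSeq promoter table. In build GRCm38.p6 the table runs from 250 bases before to 50 bases after a gene's start, and it held 50 promoters of 39 of the 53 genes. Capitals mark matches, on either strand, to letters searched by script: TGACTCA, the AP-1 site, TGACGTCA, the cAMP response element, which dimers of Jun with ATF proteins can bind, GTCTAGAC, the palindromic Smad site, and GGCGCC, a GC-rich core bound by BMP Smads. Each is printed 5′ to 3′ on the gene's strand. Tgfbi is at chr13:56609336-56609635 on the plus strand, Ltbp1 at chr17:75005279-75005578 on the plus strand, Id3 at chr4:136143572-136143871 on the plus strand and Ltbp4 at chr7:27333599-27333898 on the minus strand.
Tgfbi: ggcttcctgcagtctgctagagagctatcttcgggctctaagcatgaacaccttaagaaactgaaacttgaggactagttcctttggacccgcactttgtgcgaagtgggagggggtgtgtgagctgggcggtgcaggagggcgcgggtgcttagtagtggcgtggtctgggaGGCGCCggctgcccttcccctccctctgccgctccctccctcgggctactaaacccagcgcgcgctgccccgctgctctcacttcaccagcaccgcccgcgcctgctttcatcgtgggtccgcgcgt
Ltbp1: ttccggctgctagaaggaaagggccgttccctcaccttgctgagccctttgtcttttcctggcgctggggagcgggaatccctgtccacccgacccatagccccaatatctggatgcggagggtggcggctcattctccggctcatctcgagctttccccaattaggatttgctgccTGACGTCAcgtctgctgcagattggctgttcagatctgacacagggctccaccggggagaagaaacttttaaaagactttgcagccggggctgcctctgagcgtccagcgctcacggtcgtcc
Id3: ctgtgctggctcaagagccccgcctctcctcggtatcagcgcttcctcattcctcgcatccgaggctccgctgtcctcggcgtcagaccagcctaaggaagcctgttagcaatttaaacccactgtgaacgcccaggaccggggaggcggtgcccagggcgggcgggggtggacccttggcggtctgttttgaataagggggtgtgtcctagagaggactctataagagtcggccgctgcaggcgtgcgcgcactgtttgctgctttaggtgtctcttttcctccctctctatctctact
Ltbp4: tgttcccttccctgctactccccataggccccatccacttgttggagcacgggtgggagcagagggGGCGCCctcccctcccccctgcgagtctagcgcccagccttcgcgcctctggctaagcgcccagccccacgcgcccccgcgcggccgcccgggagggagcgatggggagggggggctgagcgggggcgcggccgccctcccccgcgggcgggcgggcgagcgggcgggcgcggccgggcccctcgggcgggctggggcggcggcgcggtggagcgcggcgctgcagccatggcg

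The match in Ltbp1 was TGACGTCA, at −73 from the start, and those in Tgfbi and Ltbp4 were GGCGCC, at −77 and −184. The printed Id3 promoter held none of these letters, and it does not cover the annotated gene start at 136143497. Ltbp1 has another promoter in the table and Ltbp4 a further 2, and the other Ltbp1 entry had no match. Of the 2 other Ltbp4 entries, that at chr7:27337563-27337862, which covers the annotated gene start, had no match, and the other overlaps the printed one and holds the same match. TGACTCA was in 1 of the 50 promoters, that of Ltbp3, and in 5.2% of all 32851 promoters in the table. TGACGTCA was in 1 of the 50 and in 1.79% of all, and GTCTAGAC in 1 of the 50, that of Smad6, and in 0.213% of all. GGCGCC was in 17 of the 50 (34%) and in 11.9% of all, and the median GC content was 65.2% over the 50 and 52.7% over all. The part of GC content in the GGCGCC count was not tested. A match describes the letters only, since binding was not measured, and promoters of alternative starts of a gene can overlap.

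Of 16 ligand genes 1 reached the floor. This was Gdf3, whose product is a Nodal-related ligand expressed in pluripotent cells. It stood at 447 without dox and 168 with dox, 2.57-fold lower, a log2 ratio of −1.36. It ranked 176th from the lowest of the 8547 genes. Both of its values were well above the floor, and it was past 2-fold also with a pseudocount of 50, at −1.19.

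The other 15 ligand genes were under the floor, at 38 or less in either library. Bmp4, the ligand classically used to sustain ES cell self-renewal with LIF, went from 34 to 10 and was the only one of the 15 with a smaller value with dox. Bmp7 stood at 8 and 38. Bmp8b was listed at 0 and 23, Bmp6 at 0 and 16, Bmp2 at 0 and 6 and Bmp3 at 0 and 1. Low values of this kind were larger with dox in 10 of the 15 genes and equal in 4, and several differed by only a few units. Of all rows, at any level, 42.4% were larger with dox. The share among all genes this low was not counted. The TGF-beta ligand genes were near 0 in both libraries: Tgfb1 at 8 and 16, Tgfb2 at 0 and 3, and Tgfb3 at 0 and 4. Gdf11 stood at 2 and 10 and the stress-associated Gdf15 at 7 and 11. Bmp5, Gdf10 and the activin subunit genes Inhba and Inhbb were listed at 0 in both libraries. Bmp8b has a close paralog, between which reads can be split. Exons on the opposite strand overlap Bmp4, Bmp5, Bmp6, Bmp8b, Tgfb2 and Tgfb3. The strand setting is unknown, so low values of these genes may hold reads of the neighbour.

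The genes of the latent TGF-beta binding proteins differed in opposite directions. Ltbp1, which encodes a matrix protein that anchors latent TGF-beta, stood at 30 without dox and 205 with dox, 5.38-fold higher, a log2 ratio of 2.43. Ltbp4, a relative known for its role in elastic fibres, stood at 216 and 85, 2.38-fold lower, a log2 ratio of −1.25. Without dox Ltbp4 had its larger value and Ltbp1 its smaller one, and with dox the reverse. Ltbp2, at 0 and 2, and Ltbp3, at 0 and 5, were under the floor. With a pseudocount of 50 Ltbp1 was still past 2-fold, at 1.67, and Ltbp4 was at −0.98. Ltbp1 lies on chromosome 17 from 75005568 to 75392512 and Ltbp4 on chromosome 7 from 27305136 to 27337692 (GENCODE M21 on GRCm38).

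Secreted antagonist genes gave no call. Fstl1, a follistatin-like glycoprotein gene, stood at 155 and 134 and was the only one of 6 at the floor. Fst, whose product follistatin binds activins, stood at 42 and 38. Fstl5 stood at 11 and 26, Fstl3 at 1 and 2, and the BMP antagonist gene Grem1 was listed at 0 in both libraries.

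Of 9 receptor genes 6 reached the floor, 1 was higher and 0 were lower. Bmpr1a, the type I receptor through which BMP2 and BMP4 signal, stood at 279 in both libraries. Tgfbr1, the type I receptor of TGF-beta, stood at 146 without dox and 138 with dox. These 2 receptor genes were nearly level. Acvr1, a type I receptor gene of BMP and activin ligands, stood at 49 and 68, and the type II receptor gene Acvr2a at 87 and 109. Bmpr2, the BMP type II receptor, stood at 120 and 192, a log2 ratio of 0.64, within 2-fold. Tgfbr2, the type II receptor without which TGF-beta ligands do not signal, stood at 26 and 67. It was 2.14-fold higher with dox, just past the threshold, at a log2 ratio of 1.10, and was within 2-fold with a pseudocount of 50, at 0.62, and with the trend on transcript length removed, at 0.82. Bmpr1b was listed at 0 and 15, the co-receptor gene Tgfbr3 stood at 12 and 10, and the endothelial receptor gene Acvrl1 was listed at 0 in both libraries.

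The Smad genes that reached the floor were within 2-fold. The common partner Smad4 stood at 162 and 211. Of the BMP receptor Smads, Smad1 stood at 86 and 66 and Smad5 at 86 and 122. Smad9, the third BMP receptor Smad, was under the floor, at 7 and 0. Smad6, an inhibitory Smad that BMP signals are known to raise, was also under it, at 19 and 7.

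Genes of inhibitors inside the cell or in its membrane were also within 2-fold or under the floor. The ubiquitin ligase genes Smurf1 and Smurf2, whose products mark Smads and receptors for degradation, stood at 100 and 135 and at 94 and 145. Ski, a corepressor that binds Smads, stood at 342 and 289. Bambi, a decoy receptor without a kinase domain, stood at 33 and 15, under the floor.

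The Id genes did not share a direction. Id3 stood at 100 without dox and 5 with dox, 7.33-fold lower, a log2 ratio of −2.87. It ranked 13th from the lowest of the 8547 genes. The other 3 were under the floor: Id1 stood at 13 and 36, Id2 at 17 and 25, and Id4 at 26 and 6. Id3 and Id4 thus had smaller values with dox, and Id1 and Id2 larger ones. The log2 ratio of Id3 was −4.07 with a pseudocount of 1 and −1.45 with a pseudocount of 50. Id3 lies on chromosome 4 from 136143497 to 136145755, and its longest annotated transcript has 1278 bases.

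**Figure D3:**
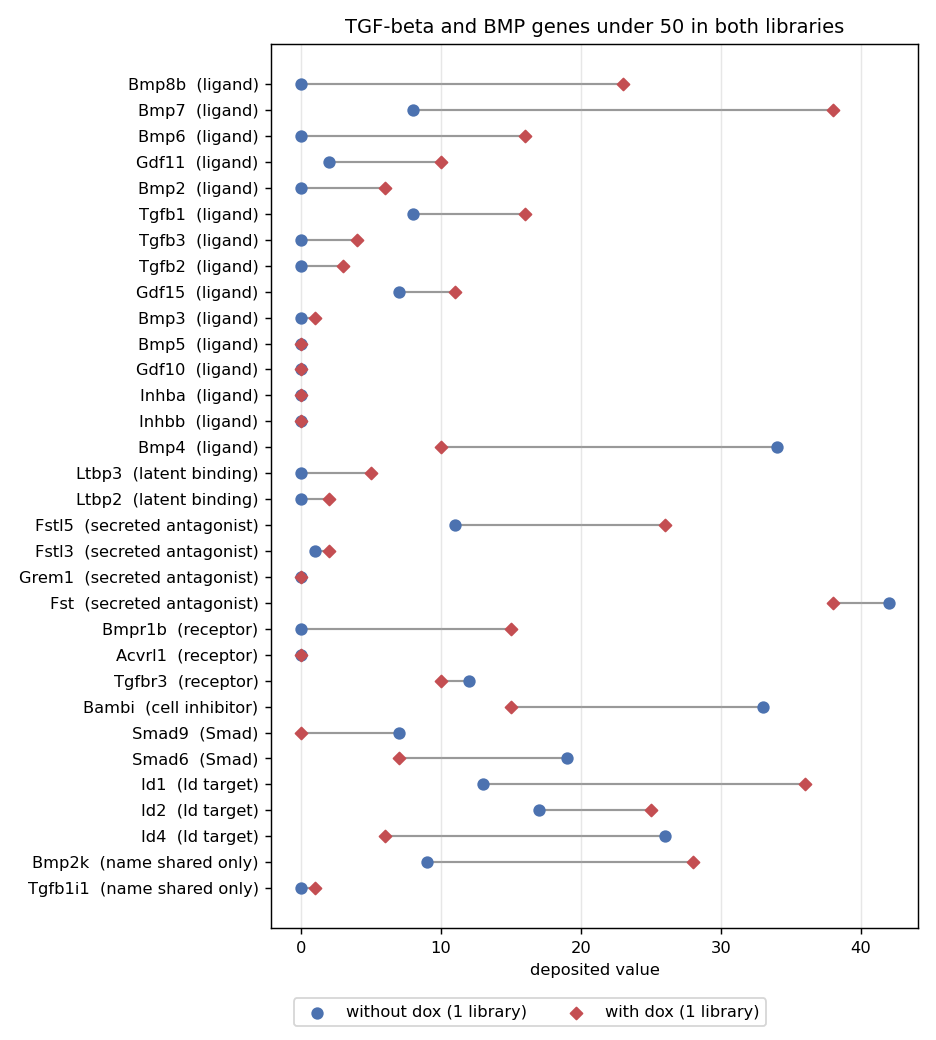
Deposited values of 32 of the 33 TGF-beta and BMP genes under 50 in both libraries, on a linear axis, grouped by role, with circles for the library without dox and diamonds for that with dox. Of the 33 genes 19 had the larger value with dox, 7 without dox and 7 were 0 in both; Fst has the highest value, 42.

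With a pseudocount of 10 the largest differences were in genes that share a name with the pathway and are neither ligands nor receptors. Bmp1 encodes a secreted metalloproteinase that trims procollagens and cleaves the BMP antagonist chordin. It stood at 6 without dox and 161 with dox, 10.7-fold higher, a log2 ratio of 3.42, and ranked 70th from the highest of the 8547 genes. Tgfbi encodes an integrin-binding matrix protein named for its induction by TGF-beta. It stood at 20 and 269, 9.30-fold higher, a log2 ratio of 3.22, and ranked 86th. Both were low without dox and among the highest 100 ratios, and with a pseudocount of 50 they were at 1.91 and 2.19. Ltbp1 ranked 197th. Bmp1 lies on chromosome 14 from 70474558 to 70520234 and Tgfbi on chromosome 13 from 56609523 to 56639562. Tgfbrap1, a receptor-associated protein of endosomes, stood at 35 and 60, within 2-fold. The kinase gene Bmp2k, at 9 and 28, and the focal adhesion gene Tgfb1i1, at 0 and 1, were under the floor.

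Over all 53 genes, with no floor, 31 had the larger value with dox (58.5%), 14 without dox and 8 were equal, and 42.4% of all rows had the larger value with dox. The median log2 ratio was 0.29 over the 53 genes and −0.03 over all rows. A value of 0 without dox and above 0 with dox stood in 10 of the 53 genes (18.9%) and in 5.21% of all rows. Fewer of the 53 genes than of all rows reached the floor, 37.7% against 59.9%. These shares were not matched for level.

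Other genes of the pathway were taken from a list of 89 symbols, of which 76 stood in the table and 50 reached the floor. Of the 50 genes 7 were higher (14%) and 5 lower (10%) with dox, beside 9.23% and 5.49% of all genes at the floor. The median log2 ratio was 0.13. With a pseudocount of 50, 3 were higher and 3 lower. Itgav, which encodes 1 subunit of integrins that can release latent TGF-beta, stood at 123 without dox and 499 with dox. Furin, a convertase that cleaves the proforms of these ligands, stood at 156 and 518, and the secreted protease gene Htra1 at 25 and 61. With a pseudocount of 50 Htra1 was within 2-fold, at 0.57. Of the 16 genes of activation outside the cell that had a row, 5 reached the floor. The 2 of these within 2-fold were the integrin subunit gene Itgb5, at 324 and 270, and the convertase gene Pcsk6, at 298 and 262. Itgb8, another integrin subunit gene, was listed at 0 in both libraries, and Itgb6 had no row.

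Cd109, which encodes a membrane-anchored TGF-beta co-receptor that dampens signalling, stood at 56 and 547, a log2 ratio of 3.08. It was the highest ratio in the list. The pathway target Pmepa1, whose product limits Smad activation, stood at 80 and 180, and Cyr61, a target shared with other pathways, at 71 and 179. With a pseudocount of 50 both were within 2-fold, at 0.82 and 0.92. Ctgf, a matricellular target, stood at 80 and 111, within 2-fold. Skil, a corepressor gene related to Ski, was just within 2-fold, at 90 and 186. Of 25 intracellular regulators at the floor 23 were within 2-fold, as were 85.3% of all genes at the floor. Rnf11, a partner of Smurf ligases, was higher, at 95 and 222, and the corepressor gene Tgif1 was lower, at 400 and 185. With a pseudocount of 50 Rnf11 was at 0.91 and Tgif1 at −0.94, both within 2-fold, and Tgif1 was at −0.99 with the median of all genes set to 0.

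**Figure D4:**
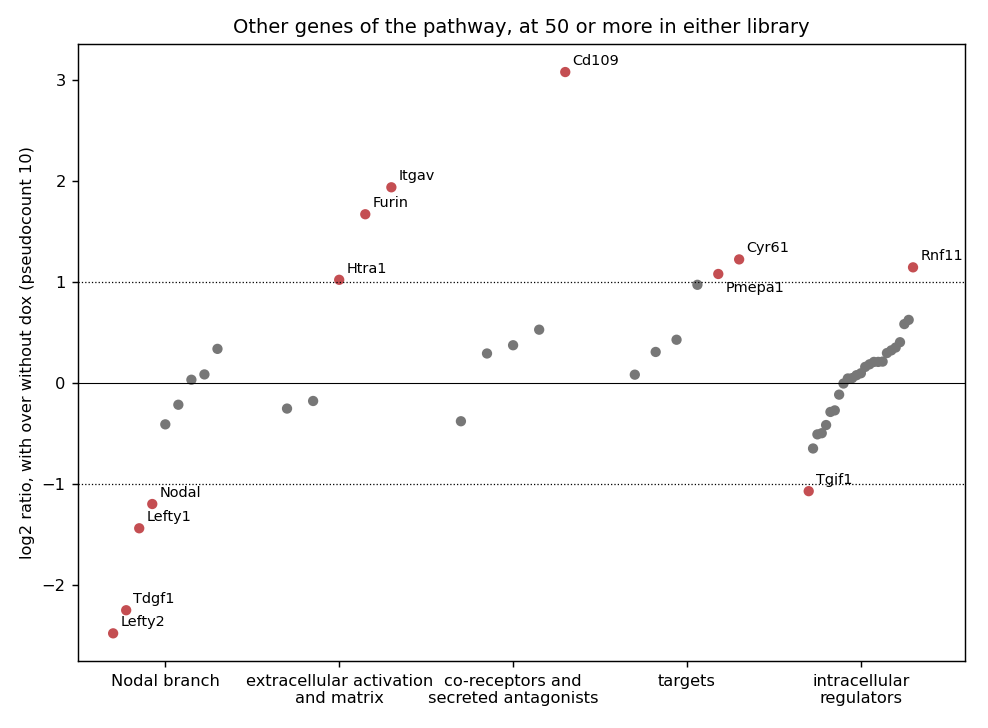
Log2 ratio with dox over without dox of the 50 other pathway genes at 50 or more in either library, by group, 1 point per gene. Dotted lines mark 2-fold; Cd109, Itgav and Furin are the highest points, and the 4 named genes of the Nodal branch lie below −1.

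The genes of the Nodal branch that were lower were Nodal, Lefty1, Lefty2 and Tdgf1, at log2 ratios of −1.20, −1.44, −2.48 and −2.25, and Nodal was within 2-fold with a pseudocount of 50, at −0.90. The receptor and Smad genes set aside by the rule had no call: Smad2 stood at 128 and 131, Smad3 at 127 and 163, Smad7 at 208 and 154 and Acvr1b at 112 and 95, while Acvr2b was under the floor, at 34 and 12.

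Jun, which the series title gives as the inducer, stood at 55 without dox and 3821 with dox, higher in the library labelled with dox. Of 10 ES cell markers all were at the floor, and 7 were lower and 0 higher with dox. Of all genes at the floor 5.49% were lower. The 3 markers within 2-fold were Sox2, at 1042 and 521, Dppa5a, at 4342 and 3818, and Pou5f1, at 3230 and 3572. Sox2 was only just within 2-fold, at a log2 ratio of −0.99 with the pseudocount of 10. The summed value of the 10 markers went from 18121 to 11375. Of 10 fibroblast markers 0 reached the floor, with sums of 33 and 80, and Dcn, Lum and Fap were listed at 0 in both libraries. Of 3 blood markers in the table, Csf1r and Cd68 were higher, and the sums were 20 and 226. The mesoderm marker T was lower, at 121 and 24, and was the only 1 of 3 mesoderm markers in the table at the floor. Primitive endoderm markers summed to 36 and 532, of which Col4a1 gave 12 and 507, and trophectoderm markers to 234 and 980. Among the latter Krt7 was listed at 0 and 374 and Krt18 stood at 10 and 395, while Tfap2c stood at 159 and 113 and Eomes at 32 and 18. Some of these lists moved with dox beside the genes described. No fibroblast marker reached the floor, and almost all of the primitive endoderm rise was Col4a1. The part of these lists in the results was not tested. In a bulk culture fewer cells of a type and less RNA per cell cannot be told apart.

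**Figure D5:**
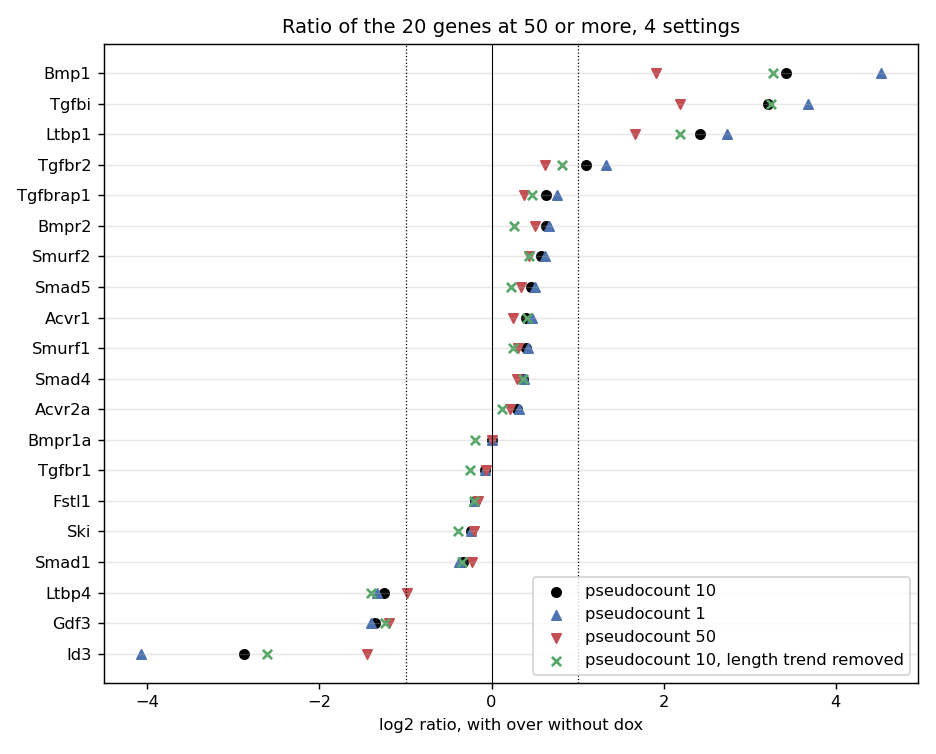
Log2 ratio with dox over without dox of the 20 genes at 50 or more in either library, under pseudocounts of 10, 1 and 50 and with the trend on transcript length removed. Bmp1, Tgfbi and Ltbp1 stay above 1 and Id3 and Gdf3 below −1 in all 4 settings, while Tgfbr2 and Ltbp4 cross a dotted 2-fold line.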

How the data were processed

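RNA from 2 suspension cultures of mouse ES cells, 1 library per group, both labelled 36 h, was sequenced after TRIzol extraction and TruSeq library preparation, per the labels' protocols. The submitters' processing notes name bcl2fastq, Bowtie2, RSEM and mm10. For versions, annotation, normalization and strand setting, none of the sources used here gives an entry.

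The deposited values were handled as a score: whole numbers on a count-like scale that the authors appear to have normalized and rounded. The quartiles of the library without dox were 14, 62 and 184. That the values were normalized was inferred from 75.5% of sorted positions with exactly equal values in both libraries (tolerance 0). Depth is therefore unknown, no counting interval is given, levels were not compared between genes, and no count model was used. Both value columns were used, and 0 were left aside.

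The log2 ratio used a pseudocount of 10 and a floor of 50 on the larger value, with 2-fold as the threshold. Alternatives were pseudocounts of 1 and 50, floors of 0, 20 and 100, thresholds of 1.5-fold and 3-fold, centring on the median of all genes, and removal of a lowess trend (fraction 0.3) on the longest transcript in GENCODE M21 (GRCm38, the assembly of mm10). All 53 genes had a length. Exons on the opposite strand overlapped 3 of the 20 genes at the floor (Tgfbrap1, Bmpr1a and Acvr2a) and 13 of the 33 under it, whose reads cannot be told apart without strand, and 0 of the 7 called genes. Promoters came from RefSeq. Genes were named where they reached the floor or, under it, by role, and some are not reported here. The genes, lists and rules were chosen with earlier results of these data known. The steps were tested on simulated data with statsmodels 0.14.6, pandas 2.3.3, numpy 2.4.6 and matplotlib 3.10.9 under Python 3.11.15.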

Additional observations from a re-analysis of the deposited data

How the results depend on the processing

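No paired analysis was possible because each group has 1 library, and for the same reason no library could be left out. The 4 higher and 3 lower TGF-beta and BMP genes became 10 and 5 with no floor and 8 and 5 with a floor of 20, settings that admit more genes. At 3-fold 1 gene, Id3, was lower. Their median log2 ratio of 0.38 was 0.40 and 0.28 with pseudocounts of 1 and 50, 0.29 without a floor, 0.39 and 0.33 with floors of 20 and 100, 0.46 with the median of all genes set to 0, and 0.24 with the length trend removed.

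For the other pathway genes the 7 higher and 5 lower became 3 and 3 with a pseudocount of 50, and without a floor 12 were higher. Their median of 0.13 was 0.11 when 50 was added, 0.079 without a floor, 0.089 and 0.095 with floors of 20 and 100, and 0.20 with the median of all genes set to 0. With the length trend removed it was −0.0305, over 48 genes, since Cyr61 and Ctgf had no length under these symbols.

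Over all genes 789 were higher and 469 lower. Adding 50 gave 498 and 171, having no floor 1255 and 796, a 1.5-fold threshold 1425 and 1511, and a 3-fold threshold 402 and 119. With floors of 20 and 100, 723 and 306 genes were lower. The median of −0.08 was −0.062 when 50 was added, −0.028 without a floor, −0.088 and −0.072 with floors of 20 and 100, and 0.00 by construction when centred.

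Of 71 single genes at the floor, 8 lost the 2-fold call with a pseudocount of 50, namely Ltbp4 at −0.98, Tgfbr2 at 0.62, Pmepa1 at 0.82, Rnf11 at 0.91, Cyr61 at 0.92, Htra1 at 0.57, Tgif1 at −0.94 and Nodal at −0.90, and 2 of 69 lost it with the length trend removed, Tgfbr2 at 0.82 and Pmepa1, which came to just under 1. Centring on the median of all genes took 1 call away, Tgif1 at −0.99, and added 1, Skil at 1.05, which a pseudocount of 1 also added, at 1.04. No called gene changed direction under the alternatives run. Uncalled ratios near 0 can change sign: 10 of 69 did with the length trend removed. With 1 library per group and unknown depth, neither variation between cultures nor counting error could be estimated.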

Other observations

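A list of 19 genes around Bmp1 was drawn up after its value was seen: procollagens and laminin chains that BMP1-type proteinases trim, the lysyl oxidase family, perlecan, chordin and the procollagen C-proteinase enhancers. Of these 10 reached the floor, of which 6 passed 2-fold upward and 0 downward, where 9.23% of all genes at the floor were higher. Lama3, which encodes a laminin chain of epithelial basement membranes, stood at 27 without dox and 294 with dox. The fibrillar collagen gene Col5a1 stood at 20 and 220, and the lysyl oxidase-like gene Loxl2 was listed at 0 and 60. Col5a3 and Col7a1 were also among the higher genes. The enhancer genes Pcolce and Pcolce2, whose products speed procollagen trimming, were within 2-fold, at 327 and 509 and at 104 and 187, as was the perlecan gene Hspg2, at 554 and 1072. The main fibroblast collagen genes Col1a1, at 2 and 3, and Col1a2, at 8 and 19, were under the floor, and Lox was listed at 0 in both libraries. Since the list was chosen with these data in view, its count is a description only.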
